A study of Mus musculus with 2 samples.

Results

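The 10 genes described here encode the type 1, type 2 and growth effector cytokines Ifng, Il2, Il21, Il4, Il5, Il13, Il9, Il3, Csf1 and Csf2. They were taken by gene name from a deposited table of read counts per gene that lists 55246 loci, and all 10 were found in it. Their messages were measured by RNA sequencing of Treg cells, the suppressive CD4 T cells defined by the factor Foxp3, taken from colon lamina propria of female mice. One genotype is wild type (WT), and the other, Exon2KO, carries the Foxp3 allele without exon 2 that the series title writes as Foxp3∆2, each represented by 1 library. Strain, age, the sorting scheme and the number of mice behind a library are not given in the sources used here. With 1 library per genotype there is no replicate check on any difference. Every interval covers counting error only and not the spread between mice. Without molecular identifiers several reads may come from 1 molecule, so the intervals may be too narrow even for counting error.

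Effector cytokines are small secreted proteins by which T helper cells direct other cells. Interferon gamma, encoded by Ifng, is the defining cytokine of type 1 helper cells and activates macrophages, while interleukins 4, 5 and 13 define type 2 helper cells and act on B cells, eosinophils and epithelium. Interleukin 2 and GM-CSF are growth factors for T cells and for myeloid cells, and Treg cells as a class make little interleukin 2 and depend on that of their neighbours. Foxp3 is known as a repressor of some of these genes, Il2 among them. The comparison of the 2 libraries addresses how colonic Treg cells with Foxp3 that lacks exon 2 differ from WT cells in these messages.

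Reads in genes numbered 16281133 for WT and 15412425 for Exon2KO. Foxp3, the targeted gene, had 6991 and 20946 reads, a count over the whole gene that does not test for the loss of 1 exon. Of 8 Treg marker genes all were detected in both libraries. By the rule below 2 were called higher and 3 lower, against 7.31% and 6.81% of all genes tested. The summed level of the 8 was 16142 and 18100 CPM (the usual scaling of counts to a common library size). RNA of other cells was also present, with immunoglobulin genes at 6.49% of all WT and 5.93% of all Exon2KO reads. In such bulk RNA, fewer cells of a type and less RNA per cell cannot be told apart.

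Csf2 was the one member with a lower call in the Exon2KO library, Il3 and Il21 were called higher from very few reads, and Ifng and Csf1 lay close to equality. Each gene whose reads in both libraries summed to 10 or more entered an exact binomial test (2-sided), in which the split of its reads was set against library sizes scaled with TMM, edgeR's trimmed mean of M-values. It was called when the Benjamini-Hochberg adjusted p-value was below 0.05 and the ratio reached 2-fold. Such a test is about these 2 libraries, not about the genotypes. Of the 10 members 8 were tested, 2 were called higher and 1 lower, while Il2 and Il9 had fewer than 10 reads. Over all 17363 genes tested, the share called higher was 7.31% and the share called lower 6.81%, or 14.1% together. Scaled to the T cell identity genes instead, 75.2% of all calls were higher, against 51.8% with TMM. Among genes with 10 to 15 reads over both libraries, the range that holds Il21, Il13 and Il3, 10.2% were called higher and 9.56% lower. In the range of 50 to 120 reads, which holds Csf2, 12.1% were called higher and 10.6% lower. The median log2 ratio, taken throughout as Exon2KO over WT after adding a prior count of 2, was 0.19 over the 8 tested members and 0.0035 over all genes tested.

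All 10 genes together had 501 reads in WT and 438 in Exon2KO, or 31.9 and 27.4 CPM. Csf1 alone supplied 46.5% of these reads in WT (95% exact interval 42.1 to 51.0) and 49.3% in Exon2KO (44.5 to 54.1). Csf2 supplied 19.0% (15.6 to 22.7) and 5.25% (3.36 to 7.78), and Il4 7.19% (5.08 to 9.81) and 12.1% (9.20 to 15.5). Il3 supplied 0% (0 to 0.734) and 2.28% (1.10 to 4.16), and Il21 0.399% (0.0484 to 1.43) and 2.97% (1.59 to 5.02). The intervals of the libraries did not overlap for Csf2, lower in Exon2KO, or for Il3 and Il21, higher there, and they overlapped for the other 7 genes. This comparison of shares was not made for other genes, so it has no background. By the separate test rule above, 14.1% of all genes tested were called in either direction.

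**Figure D1:**
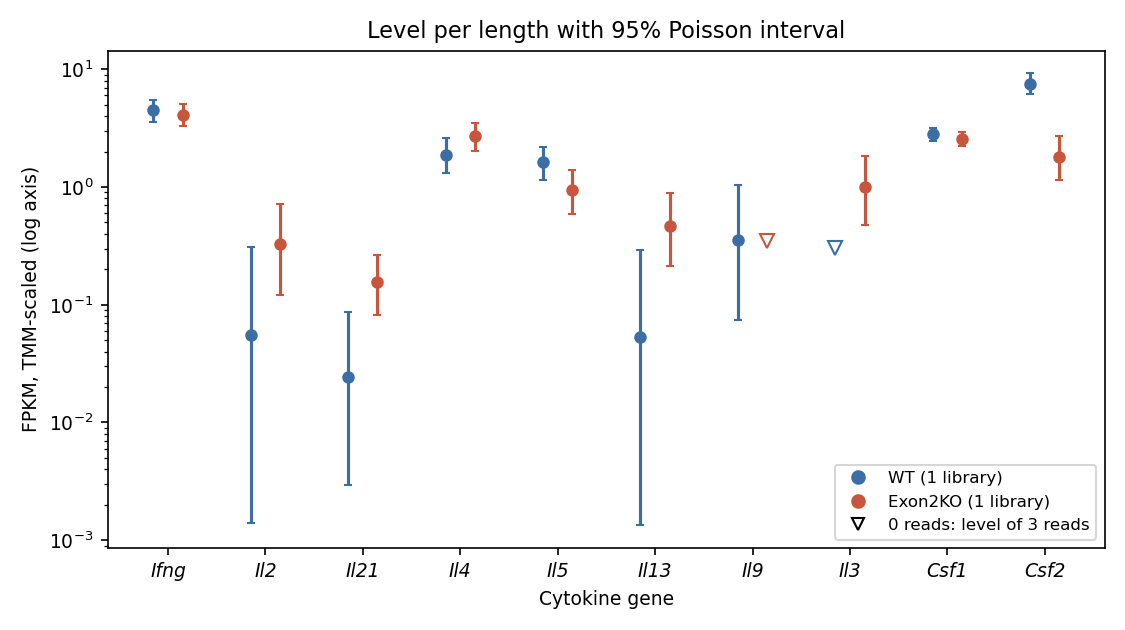
Level per length of the 10 cytokine genes in FPKM (log axis) in the WT library (blue) and the Exon2KO library (red), 1 library each, with 95% Poisson intervals of the count and an open triangle at the level of 3 reads where a library had 0 reads. Csf2 sits at 7.57 in WT and 1.80 in Exon2KO with intervals that do not overlap, while the intervals of Ifng, Csf1, Il4 and Il5 overlap between the libraries.

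Csf2 (ENSMUSG00000018916, chromosome 11, 54247271 to 54249667 on the minus strand, GRCm38) encodes GM-CSF, a growth factor for macrophages, granulocytes and dendritic cells. WT held 95 of its reads and Exon2KO 23, equal to 6.05 and 1.44 CPM. Without a prior count the level was 4.21-fold lower in Exon2KO (95% interval 2.65 to 6.96). The log2 ratio with the prior count of 2 was -1.98 (interval without prior count -2.80 to -1.40), with an adjusted p-value of 6.61e-11 by the exact binomial test. The authors' deposited table gives Csf2 a log2 fold change of -2.07 with an adjusted p-value of 0.00460. In the authors' deposited table the adjusted p-values of Il3, Il21 and Il13 are 0.0754, 0.201 and 0.307, and Csf2 is the 1 member below 0.05. When a spread between samples was assumed (biological coefficient of variation, BCV), edgeR's exact test kept the call at a BCV of 0.2 and lost it at 0.4 (adjusted p = 0.586).

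Il3 (ENSMUSG00000018914, chromosome 11, 54265303 to 54267277, minus strand) encodes interleukin 3, a growth factor for mast cells, basophils and blood progenitors, and is the protein-coding neighbour of Csf2. It had 0 reads in WT, which allows up to 0.304 FPKM (3 reads), and 10 reads in Exon2KO, or 0.994 FPKM. Against a floor of 3 reads in the WT library it was at least 3.27-fold higher, with an adjusted p-value of 0.00622 by the exact binomial test. With the counting error of the 10 reads included, the 95% interval of the ratio starts at 2.20-fold. This call rests on 10 reads and was lost with an assumed BCV of 0.2 (adjusted p = 0.0583 by edgeR's exact test).

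Csf1 (ENSMUSG00000014599, chromosome 3, 107741048 to 107760469, minus strand) encodes M-CSF, the growth factor of monocytes and macrophages. It had the most reads of the 10 genes, 233 in WT and 216 in Exon2KO. Its log2 ratio was -0.13 (-0.41 to 0.14), with a counting interval under TMM scaling from 1.33-fold lower to 1.10-fold higher in Exon2KO, and it did not pass the test (adjusted p = 0.461, exact binomial test). When scaled to the summed reads of 12 T cell identity genes, the log2 ratio turned to 0.22 and still did not pass (adjusted p = 0.159).

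Il4 (ENSMUSG00000000869, chromosome 11, 53602982 to 53618669, minus strand) encodes interleukin 4, which drives type 2 helper differentiation and IgE switching. Its 36 reads in WT and 53 in Exon2KO gave a log2 ratio of 0.51 (-0.11 to 1.18), and it did not pass the test (adjusted p = 0.168, exact binomial test). Il5 (ENSMUSG00000036117, chromosome 11, 53720794 to 53725106, plus strand) encodes interleukin 5, the growth and survival factor of eosinophils. Its 39 reads in WT and 23 in Exon2KO gave a log2 ratio of -0.74 (-1.60 to -0.0091), and it did not pass either (adjusted p = 0.0887). Neither gene was thus called with TMM scaling. With scaling to the T cell identity genes Il4 had a log2 ratio of 0.85 and an adjusted p-value of 0.00826 by the exact binomial test, short of 2-fold.

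Il13 (ENSMUSG00000020383, chromosome 11, 53631324 to 53634702, minus strand) encodes interleukin 13, which acts on epithelium and goblet cells. There was 1 read in WT and 9 in Exon2KO, so an 8.83-fold ratio with a 95% interval of 1.22 to 387. Its adjusted p-value of 0.0508 by the exact binomial test lay just outside the threshold. It fell inside with total counts (0.0248), with scaling to the T cell identity genes (0.0137) and among protein-coding genes only, and it was 0.261 with an assumed BCV of 0.2 and 1 with 0.4 (edgeR's exact test). Il9 (ENSMUSG00000021538, chromosome 13, 56479277 to 56482246, minus strand) encodes interleukin 9, a mast cell growth factor, and had 3 reads in WT and 0 in Exon2KO. Both values are at or under 3 reads, so no fold is given for Il9.

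Ifng (ENSMUSG00000055170, chromosome 10, 118441046 to 118445892, plus strand) had 91 reads in WT and 85 in Exon2KO. The log2 ratio was -0.12 (-0.57 to 0.32), and at this depth no difference was detectable (adjusted p = 0.721, exact binomial test). Under TMM scaling the counting interval ran from 1.48-fold lower to 1.25-fold higher in the Exon2KO library. Scaled to the T cell identity genes the ratio turned to 0.23 and did not pass (adjusted p = 0.372).

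Il2 (ENSMUSG00000027720, chromosome 3, 37120523 to 37125959, minus strand) encodes interleukin 2, the T cell growth factor. It had 1 read in WT and 6 in Exon2KO, too few for the test, and its 5.89-fold ratio had an interval of 0.715 to 271. Il21 (ENSMUSG00000027718, chromosome 3, 37222759 to 37232636, minus strand) lies beside it and encodes interleukin 21, which helps germinal centre B cells and is made by follicular and type 17 helper cells. There were 2 reads in WT and 13 in Exon2KO, so a 6.38-fold ratio (1.44 to 58.2) with an adjusted p-value of 0.0203 by the exact binomial test. The call for Il21 was lost with an assumed BCV of 0.2 (adjusted p = 0.166 by edgeR's exact test).

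**Figure D2:**
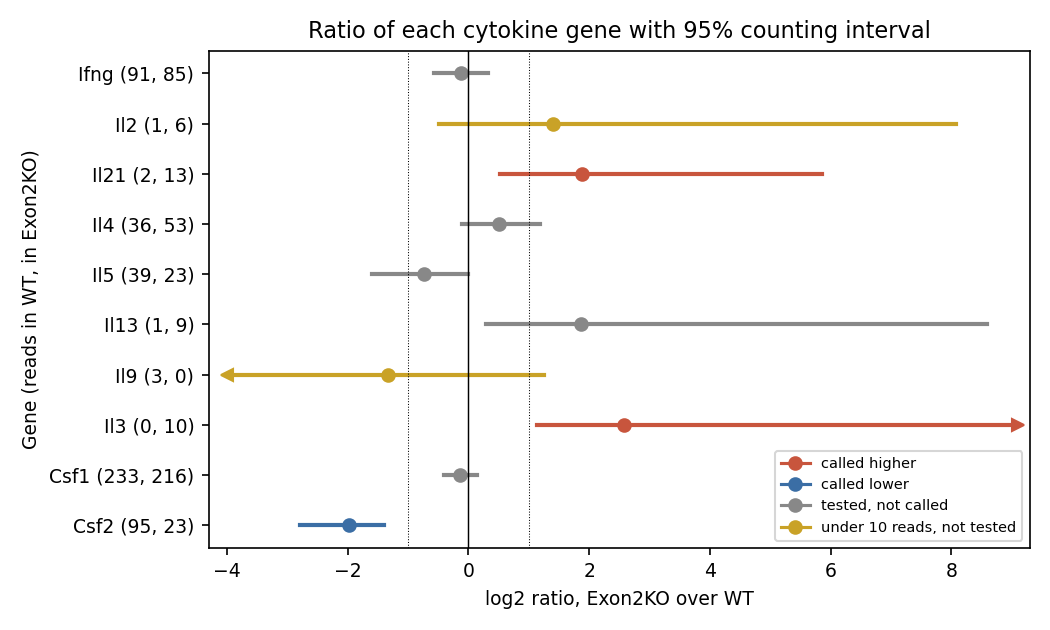
Log2 ratio of Exon2KO over WT (points, prior count of 2) of each cytokine gene with its 95% counting interval without prior count (bars, arrows where open), with the reads in WT and Exon2KO in brackets and dotted lines at 2-fold. Csf2 lies wholly below the lower line at -1.98, Il3 wholly above the upper line, and Ifng and Csf1 have narrow intervals around 0.

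Compared per length, the order of the genes also differed between the libraries. FPKM here is CPM divided by the deposited gene length in kilobases, with exact Poisson intervals. In WT, Csf2 was first at 7.57 (6.12 to 9.25), followed by Ifng at 4.48 (3.60 to 5.50) and Csf1 at 2.81 (2.46 to 3.20), and these 3 did not overlap one another. Il4 at 1.87 (1.31 to 2.59) overlapped both Csf1 above it and Il5 below it, the latter at 1.62 (1.15 to 2.21). The remaining 5 genes were at 0.357 or less, and their neighbours in the order could not be told apart.

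In Exon2KO, Ifng was first at 4.11 (3.28 to 5.08), and Il4 was second at 2.70 (2.02 to 3.53). Csf1 followed at 2.56 (2.23 to 2.92) and Csf2 at 1.80 (1.14 to 2.70), and the intervals of all neighbours overlapped down the order. Csf2 was thus first in WT and below Ifng, Il4 and Csf1 in Exon2KO. Among 12853 tested protein-coding genes, whose median level was 3.14 FPKM in WT and 3.17 in Exon2KO, Csf2 stood at percentile 66.9 in WT and 39.2 in Exon2KO. Ifng stood at percentile 56.7 and 55.3, and Il21 at 1.61 and 8.34.

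Whether 2 cytokine genes moved by different amounts can be asked without any library scaling. The reads of each pair of the 8 tested genes were compared in a table of gene by library with a 2-sided Fisher's exact test, adjusted over the 28 pairs. By counting error alone, the ratios differed in 18 pairs, including all 7 pairs with Csf2. Those 7 pairs share the same Csf2 reads and are not independent. Spread between mice is not covered, and pairs of other genes were not compared. The Exon2KO to WT read ratio of Il4 was 6.08 times that of Csf2 (adjusted p = 1.00e-07, Fisher's exact test), and that of Csf1 was 3.83 times that of Csf2 (adjusted p = 1.35e-07). Il5, the tested gene with the next lowest ratio, still differed from Csf2 by 2.44 times (adjusted p = 0.0204, Fisher's exact test).

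Within the type 2 group the 3 classical cytokines did not share 1 ratio in these 2 libraries, by counting error alone. The ratio of Il4 was 2.50 times that of Il5 (adjusted p = 0.0164, Fisher's exact test), and that of Il13 was 15.3 times that of Il5 (adjusted p = 0.00885). Il4 and Il13 could not be separated (adjusted p = 0.114, Fisher's exact test). Summed over Il4, Il5 and Il13, the reads were 76 in WT and 85 in Exon2KO. Il3, Il13 and Il21, the low genes with more reads in Exon2KO, could not be separated from one another (adjusted p between 0.56 and 1, Fisher's exact test), nor could Ifng from Csf1 (adjusted p = 1).

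Of the 10 genes, 5 lie in 1 region of chromosome 11, a cluster of cytokine genes conserved among mammals. Il4 and Il13 are 12.7 kb apart, Il5 lies 86.1 kb beyond Il13 on the far side of the DNA repair gene Rad50, and Csf2 and Il3 are 15.6 kb apart, 522 kb further on. From Sept8 to Acsl6, a stretch of 846 kb, the table lists 32 loci, of which 16 were tested. Csf2 was the 1 locus called lower and Il3 the 1 called higher, and none of the 11 tested loci that are not cytokine genes was called. Over all genes tested, 6.81% were called lower and 7.31% higher, so few calls would be looked for among so few loci. Their log2 ratios ran from -0.25 for Irf1, an interferon-induced factor with 15185 and 13048 reads, to 1.12 for P4ha2, which had only 3 and 9 reads. Kif3a, the protein-coding gene beside Il4, was at 0.39 (0.10 to 0.68) with 173 and 231 reads, and Rad50 at -0.05 (-0.30 to 0.20) with 262 and 258. The neighbouring genes Csf2 and Il3 had the lowest and the highest ratio of the 16 tested loci, that of Il3 from 0 and 10 reads. Their pair had an adjusted p-value of 2.57e-06 (Fisher's exact test over the 28 pairs), for counting error only. It is singled out here after its values were seen, so the p-value is no added support.

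**Figure D3:**
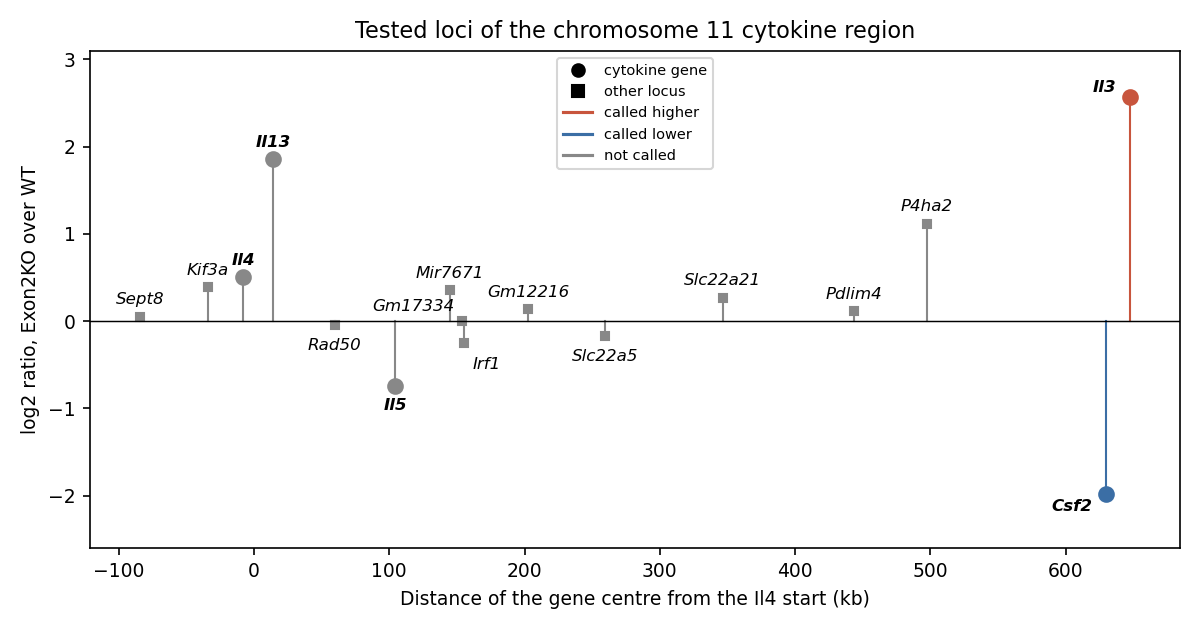
Log2 ratio of Exon2KO over WT for the 16 tested loci of the chromosome 11 cytokine region against the distance of each gene's centre from the start of Il4 in kb, with circles for cytokine genes and squares for other loci. Csf2 at -1.98 and Il3 at 2.57 (with the prior count of 2, on which the value of Il3 depends) stand apart at the right, next to each other, while the squares lie between -0.25 and 1.12.

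The 250 bases upstream of the RefSeq start are shown for the 4 chromosome 11 genes with the ratios farthest from 0, because neighbours in this cluster had opposite ratios, and for Il21, the other gene called. All 10 genes matched at least 1 entry of the RefSeq promoter table, whose build is GRCm38.p6. Each run reads 5′ to 3′ on the gene's strand and ends at the base before the start. Capitals mark matches on either strand. The core bound by the calcium-dependent factor NFAT, common in cytokine promoters, was searched as GGAAA. For the family of zinc finger factors that includes Gata3, the letters searched were AGATAA. An AP-1 motif, TGANTCA, was searched too but had no match here, and no matches overlapped in the runs shown.
Csf2 (chr11:54249900-54250149, minus strand): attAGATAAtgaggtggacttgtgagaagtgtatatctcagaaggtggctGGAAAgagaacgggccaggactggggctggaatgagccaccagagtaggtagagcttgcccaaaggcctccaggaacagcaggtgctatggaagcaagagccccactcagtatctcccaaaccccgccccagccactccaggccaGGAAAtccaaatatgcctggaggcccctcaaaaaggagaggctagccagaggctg
Il3 (chr11:54267280-54267529, minus strand): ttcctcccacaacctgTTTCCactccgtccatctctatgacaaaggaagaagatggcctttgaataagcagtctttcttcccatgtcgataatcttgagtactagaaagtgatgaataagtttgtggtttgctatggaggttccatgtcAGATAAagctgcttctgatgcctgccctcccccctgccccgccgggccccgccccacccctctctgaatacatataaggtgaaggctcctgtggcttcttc
Il5 (chr11:53720544-53720793, plus strand): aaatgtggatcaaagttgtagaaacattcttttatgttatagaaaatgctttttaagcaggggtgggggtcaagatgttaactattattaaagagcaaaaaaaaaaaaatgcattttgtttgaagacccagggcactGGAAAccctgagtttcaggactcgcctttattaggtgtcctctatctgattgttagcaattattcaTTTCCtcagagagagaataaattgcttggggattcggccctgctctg
Il13 (chr11:53634703-53634952, minus strand): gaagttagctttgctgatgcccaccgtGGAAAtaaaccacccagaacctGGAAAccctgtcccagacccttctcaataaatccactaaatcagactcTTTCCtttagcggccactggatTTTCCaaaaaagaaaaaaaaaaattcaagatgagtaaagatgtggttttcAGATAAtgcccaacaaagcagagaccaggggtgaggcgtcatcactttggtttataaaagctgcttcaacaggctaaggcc
Il21 (chr3:37232637-37232886, minus strand): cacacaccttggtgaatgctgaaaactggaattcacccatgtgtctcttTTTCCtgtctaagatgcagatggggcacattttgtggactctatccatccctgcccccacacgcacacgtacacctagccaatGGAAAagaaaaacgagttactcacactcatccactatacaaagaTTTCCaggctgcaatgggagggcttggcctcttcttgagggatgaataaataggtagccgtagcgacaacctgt
GGAAA occurred in all 5 windows, with 2 matches for Csf2, 1 for Il3, 2 for Il5, 4 for Il13 and 3 for Il21, and it occurs in 55.6% of the 32851 windows of this length in the table. AGATAA occurred in the windows of Csf2, Il3 and Il13 and in those of no other member, against 9.99% of all windows. The match lay at -247 in the Csf2 window and at -101 in the Il3 window, and any bearing on their ratios was not tested. TGANTCA was found only for Il9 among the members (6.75% of all windows), and the forkhead motif TGTTTAC, the class Foxp3 belongs to, in none of them (3.17% of all windows). A match is a description of these letters and not a binding site. The RefSeq start of Csf2 lies 232 bases upstream of the start in the deposited table, so its window is not the sequence next to that start.

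The other end of the message was examined as well. ATTTA, the pentamer of AU-rich elements, which are known to shorten the life of cytokine messages, was counted in the 3′ untranslated region of the GENCODE M21 transcript with the longest coding sequence. Csf2 had 9 matches in 317 bases, 28.4 per kb, a density reached by 0.092% of 20653 genes. Il9 had 34.9 per kb, Il4 19.2, Il2 12.05, Il3 9.90, Ifng 9.51, Il5 6.41, Il13 4.05 and Csf1 1.89, against a median of 1.12 over all genes, 61.6% of which have at least 1 match. The densities of Il9 and Il4 rest on 3 and 2 matches, and those of Il13 and Csf1 are reached by 12.6% and 36.5% of genes. Il21 had 0, in a region of only 40 bases in that transcript. Copies that overlap by their last and first base were present in Csf2 (5) and Il2 (1), and in 5.49% of all genes.

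Near Ifng, the interleukin 22 genes behaved differently from Ifng itself. Il22, 231 kb away, had 45 reads in WT against 269 in Exon2KO (log2 ratio 2.50, interval 2.09 to 3.04), and its near-identical copy Iltifb, 146 kb away, had 2 and 22, with reads that could be split between the copies. The ratio of Il22 was 6.40 times that of Ifng (p = 3.29e-18, Fisher's exact test, 1 pair chosen after its values were seen). Around Il2 and Il21 on chromosome 3, Cetn4 was at -0.18 (-0.84 to 0.45), Bbs12 had 3 and 7 reads, and Fgf2 had 1 and 8. Ahcyl1, near Csf1, was at 0.03, and beside Il9 on chromosome 13, Fbxl21 was at -0.08. None of these neighbours other than the interleukin 22 genes was called, against 14.1% of all genes tested called in either direction.

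Loci that overlap a member were checked because the use of strand in counting is not given in the sources used here. The antisense loci at Il21, Il5 and Csf2, and Adad1 at Il2, had 0 reads in both libraries. AC153498.1, within Ifng on the same strand, had 3 reads in WT and 0 in Exon2KO. These overlapping loci therefore held 3 reads in all.

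Of the 16 receptor genes for these cytokines, 15 were tested. Of these, 1 was called higher and 3 lower, against 7.31% and 6.81% of all genes tested, and their median log2 ratio was -0.34. With scaling to T cell identity genes the median turned to 0.0104 and 2 receptor genes were called. Il9r, the receptor of interleukin 9, had 132 reads in WT against 17 in Exon2KO, so its log2 ratio was -2.84 (-3.81 to -2.25). Il13ra1 had 36 and 16 (-1.10, -2.15 to -0.31), and Il5ra, the receptor of interleukin 5, had 11 and 2 (-1.72, -5.70 to -0.29). Csf2rb2, the beta chain of the interleukin 3 receptor, had 3 and 20 (2.12, 0.96 to 5.10), and its close copy Csf2rb had 27 and 41 (0.54, -0.16 to 1.33), so the division of reads between these 2 is uncertain. Il3ra, the alpha chain of the interleukin 3 receptor, had 136 and 120 (-0.20, -0.57 to 0.16) and was not called, so Csf2rb2 was the 1 receptor gene called higher, on 23 reads in all.

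The abundant receptors stayed within 2-fold. The interferon gamma receptor gene Ifngr1 had 63309 reads in WT and 53528 in Exon2KO (-0.27, -0.29 to -0.25). Among the chains of the interleukin 2 receptor, Il2rb was at 0.44 (0.40 to 0.48), Il2ra, the chain that marks Treg cells, at -0.35 (-0.43 to -0.27), and the common gamma chain gene Il2rg at -0.56 (-0.60 to -0.53). Il21r was at -0.51 (-0.54 to -0.48) and Il4ra at -0.15 (-0.19 to -0.11). Receptors with fewer reads included the GM-CSF receptor gene Csf2ra, with 80 and 64 (-0.34, -0.85 to 0.14). Csf1r, the receptor of M-CSF, had 14 and 6 reads (-1.02, -2.92 to 0.22), past 2-fold but not called.

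**Figure D4:**
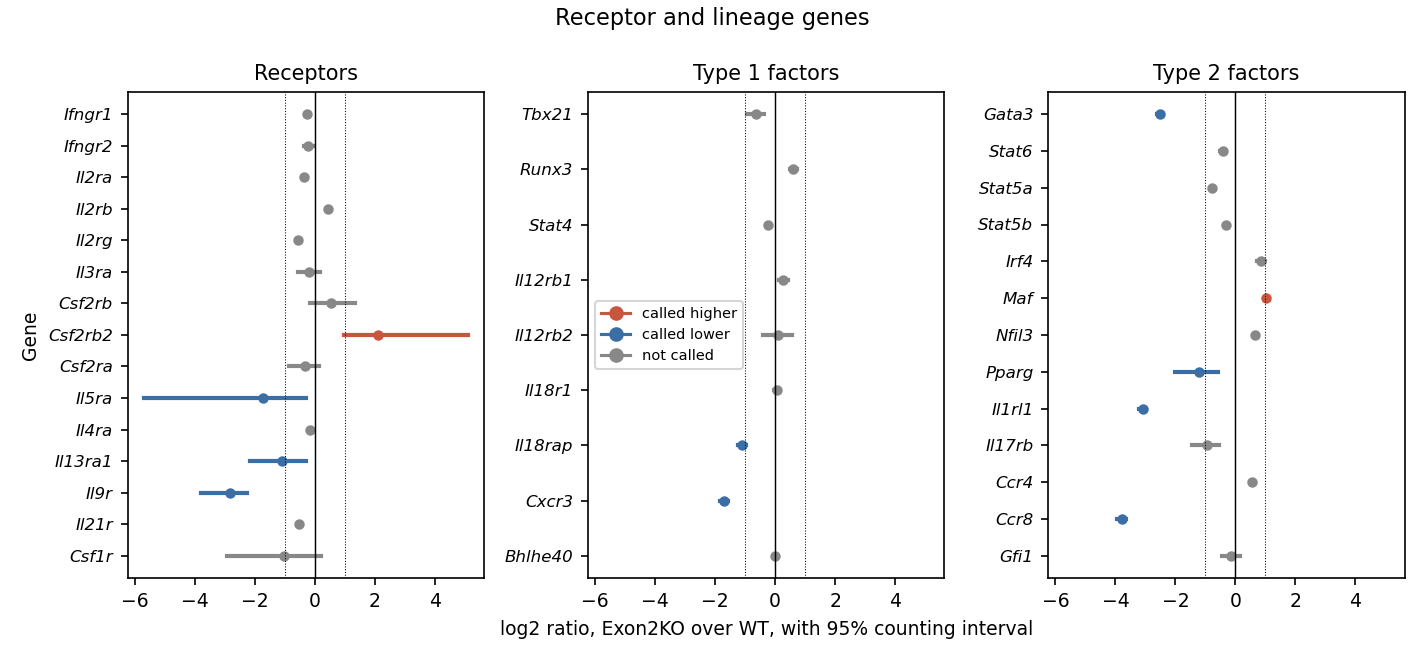
Log2 ratio of Exon2KO over WT with 95% counting intervals for tested receptor genes (left), 9 of the tested type 1 factors (middle) and the tested type 2 factors (right), with dotted lines at 2-fold. Ccr8, Il1rl1 and Gata3 on the right lie at -3.79, -3.09 and -2.51, while the type 1 factors shown lie between -1.69 and 0.61.

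Several lineage genes of the type 2 programme were called lower, while none of Il4, Il5 and Il13 was called. Of 13 tested, 4 were called lower and 1 higher, against 14.1% of all genes called in either direction. The median was -0.40, and -0.04 with scaling to T cell identity genes. Gata3, the master factor of type 2 helper cells, had 5347 and 954 reads (-2.51, -2.61 to -2.41), Il1rl1, the receptor of interleukin 33, had 5655 and 676 (-3.09), and the chemokine receptor gene Ccr8 had 5168 and 378 (-3.79). Pparg had 59 and 25 (-1.20). Maf, which activates Il4 and Il10, was called higher at 1.03 (0.96 to 1.10). Irf4 and Nfil3 were at 0.86 and 0.65, and Stat6 and Stat5a at -0.40 and -0.78, all short of 2-fold.

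Of 11 tested type 1 genes, 2 were called lower and none higher, against 6.81% and 7.31% of all genes tested. Their median of -0.0067 turned positive with total counts (0.099), DESeq2 size factors (0.0074) and T cell identity genes (0.35). Cxcr3, a chemokine receptor of type 1 cells, was at -1.69 (-1.82 to -1.57), and Il18rap, a chain of the interleukin 18 receptor, at -1.10 (-1.24 to -0.97). Tbx21, which encodes the type 1 master factor T-bet, had 242 and 157 reads (-0.64, -0.95 to -0.36), and Bhlhe40, a factor needed for Csf2 in T cells, had 23502 and 23831 (-0.0067, -0.03 to 0.02). Runx3 and Il12rb1 were at 0.61 and 0.28, and Stat4 at -0.23. Among 7 tested genes tied to interleukins 9 and 21, 1 was called lower, against 6.81% of all genes tested. It was Cxcr5 at -2.24 (-2.77 to -1.83), and the median of the 7 was -0.63. Batf, which binds with Irf4 at Il9 and Il21, was at -0.83, Bcl6 at -0.54, Irf8 at -0.63 and Id3 at -0.81.

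Genes known to be induced by these cytokines were counted as lists, beside 7.31% of all genes tested called higher and 6.81% lower. Of 20 genes induced by interferon gamma, none was called in either direction, and 2 had an adjusted p-value below 0.05 with a ratio above 0 and 12 with a ratio below 0 (exact binomial test). Their median was -0.30, against 0.0035 over all genes, and it turned to 0.056 with scaling to T cell identity genes, which moved the median of all genes to 0.36. Of 10 genes induced by interleukin 2 through STAT5, with a median of -0.53, Socs2 was called higher at 1.04 (0.96 to 1.12), and Myc and Lif lower at -1.85 (-2.01 to -1.70) and -2.46 (-4.01 to -1.64). Cish, a direct STAT5 target, had 4784 and 4176 reads (-0.22, -0.28 to -0.16). Of 12 genes induced by interleukins 4 and 13, 6 were tested and 2 were called lower, both genes of goblet cells. Retnlb had 157 and 16 reads (-3.17, -4.16 to -2.58) and Clca1 had 105 and 7 (-3.60, -5.28 to -2.84).

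Markers of other cells that make these cytokines moved between the libraries, and their part in the cytokine counts was not tested. For the counts of calls below, the shares over all genes tested were 7.31% higher and 6.81% lower. Of 9 mast cell and basophil markers, the proteases Mcpt1, Mcpt2, Mcpt4, Mcpt8 and Tpsb2 and the IgE receptor gene Fcer1a had 0 reads in both libraries and Cpa3 had 1 and 0, with a summed level of the list of 27.4 CPM in WT and 16.7 in Exon2KO that came mostly from Hdc and from Kit, which was called lower (149 and 53 reads). Of 5 eosinophil markers, Siglecf, Epx and Ear1 were at 0 in both, and the summed 24.3 and 3.75 CPM came mostly from the chemokine receptor gene Ccr3, called lower. Of 7 markers of group 2 innate lymphoid cells, 1 was called lower, Il1rl1, and the summed level of 543 and 255 CPM was led by that gene in WT (5655 and 676 reads). Il17rb had 122 and 63 reads (-0.96, -1.44 to -0.53), Calca 2568 and 3138, Nmur1 119 and 126, Hs3st1 37 and 49, and Rxrg 0 in both. Of 9 CD8 and natural killer markers, 3 were called lower and 1 higher, with a summed level of 347 and 22.2 CPM, led by Gzma with 5153 and 164 reads, and the natural killer gene Ncr1 had 0 and 10 reads.

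The same shares over all genes tested, 7.31% higher and 6.81% lower, stand beside the next lists. Of 6 markers of gamma-delta T cells, 4 were called higher and 1 lower, Trdv4 with 15 and 1 reads. Their summed level of 13.1 and 80.4 CPM came mostly from the gamma chain gene Tcrg-C1 (123 and 1034 reads), while the delta chain constant gene Trdc was at 14 and 13 reads. Of 5 follicular T cell markers, 3 were called lower (1323 and 303 CPM), with most of the sum from Pdcd1 (17272 and 2520 reads), and Tox2 had 948 and 1070. Of 8 epithelial markers, 6 were called higher (78.5 and 274.9 CPM), led in Exon2KO by Krt8 (160 and 1604 reads) and Krt19 (81 and 1430). Epcam was the 1 epithelial marker with a ratio below 0 (782 and 609 reads, -0.39, -0.54 to -0.23), and it was not called. Of 8 myeloid markers none was called (44.3 and 52.7 CPM), with Itgax at 0 in both, and of 9 stromal and endothelial markers 2 were called higher (76.1 and 70.4 CPM). Of 7 B and plasma cell markers, 1 was called higher and 2 lower (7942 and 7384 CPM).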

How the data were processed

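RNA sequencing gave 1 library of colonic Treg cells for each of 2 genotypes. The deposited table holds raw read counts per gene, with FPKM values that the authors scaled to gene length and library size, and a further scaled count signal by the authors that was not used. It also holds the authors' deposited log2 fold change, p-value and adjusted p-value. Per the submitters' processing notes, HISAT2 2.0.5, StringTie 1.3.3b, featureCounts 1.5.0-p3 and DESeq2 1.16.1 were used with build mm10. The role of each and the use of strand are not given in the sources used here. All 10 members have identical coordinates in GENCODE M21 (GRCm38).

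Counts were scaled with TMM (edgeR 4.0.16, R 4.3.3; factors 0.964 in WT, 1.04 in Exon2KO). A quasi-likelihood test needs replicates, which this design lacks, so the exact binomial test described above was run in Python 3.11.15 with scipy 1.17.1 and statsmodels 0.14.6, and it was tested on simulated data. Ratios carry 95% intervals (Clopper-Pearson, on the share of a gene's reads in Exon2KO, no prior count), and limits of a count of 0 use 3 reads. Alternatives covered 5 other scalings (among them DESeq2 1.42.0 size factors), read minimums, fold thresholds, prior counts and assumed BCVs. The genes named are the 10 members, called genes of the lists, and receptor, lineage and locus genes with at least 10 reads. Cpa3, Fgf2, Trdc, Calca, Tox2, Nmur1, Hs3st1, Hdc, Epcam, Cish, Tnf, Lta, Areg and markers at 0 fall outside this rule and were chosen after their values were seen. The members and lists were chosen with earlier results of these data known. Some list members are not reported here by name. Genes in more than 1 list include Irf1, Il2ra, Socs1, Cish, Lif, Osm, Il10, Il22, Il1rl1, Il17rb, Csf1r, Eomes, Cxcr5 and Bcl6.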

Additional observations from a re-analysis of the deposited data

How the results depend on the processing

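No paired analysis was possible because WT and Exon2KO are 1 library each, and for the same reason no library could be left out. Of the 10 members, Csf2 kept its lower call in all but 2 alternatives, a 4-fold threshold, which its log2 ratio of -1.98 with a prior count of 2 narrowly misses, and an assumed BCV of 0.4. The median of all genes moved from 0.0035 to 0.11 with total counts and to 0.36 with T cell identity scaling, and the cause was not tested. Total counts turned the medians of the type 1 factors to 0.099 and of the neighbours of Ifng, Il2, Il21, Il9 and Csf1 to 0.016, and left 1 type 1 factor and 0 T cell identity genes called. DESeq2 size factors gave a type 1 median of 0.0074. T cell identity scaling turned Ifng to 0.23, Csf1 to 0.22, and the medians of receptors to 0.0104, type 1 factors to 0.35, interferon gamma induced genes to 0.056, those neighbours to 0.25 and T cell identity genes to 0.15. It called 2305 genes higher and 760 lower, with 2 receptors and 0 T cell identity genes. A minimum of 50 reads, which leaves fewer genes, gave 0 members higher, 649 genes higher and 685 lower, 2 receptors, 1 chromosome 11 locus gene (its list's median turned to -0.11) and 1 of the other neighbours. A 1.5-fold threshold gave 1870 genes higher and 1891 lower, and 5 type 1, 9 type 2, 4 interleukin 9 and 21, 5 interferon gamma induced, 6 STAT5 induced and 2 T cell identity genes. A 4-fold threshold gave 1 member higher (Il3) and 0 lower, 499 genes higher and 408 lower, with 2 receptors, 0 type 1, 3 type 2, 1 STAT5 induced, 1 chromosome 11 and 0 T cell identity genes. An assumed BCV of 0.2 gave 0 members higher with 579 genes higher and 536 lower, and 0.4 gave 0 members higher and 0 lower with 86 and 78 genes. Restricting the test to protein-coding genes gave 820 upward and 824 downward calls, and Fisher's exact tests among members with at least 50 reads gave 5 unequal pairs of 10. Upper quartile scaling, TMM without immunoglobulin, T cell receptor segment and mitochondrial genes, prior counts of 0.5 and 5, and no read minimum changed none of the calls among the 10 members. The size of the low genes' log2 ratios depends on the prior count, at 4.38 and 1.58 for Il3, 2.64 and 1.21 for Il13 and 2.41 and 1.35 for Il21 with 0.5 and 5. Depth leaves the ratios of Il13 and Il21 between 1.22 and 387 and between 1.44 and 58.2.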

Other observations

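Among other cytokine genes of T cells, calls were made for 7 of 14 tested genes, against 14.1% of all genes tested. Of the 7 calls, 5 were upward and 2 downward, and the median log2 ratio of the 14 was 0.35. Il6, which encodes the acute phase cytokine interleukin 6, had 11 and 94 reads (2.86, 2.16 to 4.12), beside Il17a, Il17f, Il22 and Il10. Ebi3, a subunit of interleukins 27 and 35, had 944 and 191 reads (-2.32, -2.56 to -2.11), and Lif had 52 and 8. Tnf had 1252 and 1806 reads (0.50, 0.40 to 0.61), and Lta had 182 and 221 (0.25, -0.04 to 0.54), both short of 2-fold. Areg, which encodes a tissue repair factor, had 20939 and 12392 reads (-0.78, -0.82 to -0.75).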
